A study of Homo sapiens with 9 samples.

Results

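NRF2, encoded by NFE2L2, its inhibitor KEAP1 and 8 antioxidant target genes (NQO1, GCLC, GCLM, TXNRD1, SRXN1, AKR1C1, AKR1C2 and AKR1B10) were followed in TE13 cells, an established cell line of esophageal squamous cell carcinoma (ESCC). The members were taken from the deposited gene table by symbol, which gave 10 genes of 60605. Of these, 8 entered the test of 21395 genes, and AKR1C1 and AKR1C2 did not reach the minimum mean of 0.1 FPKM (fragment counts scaled to exon length and to the depth of the library). The study asked how the transcriptome of these cells responds to loss of PARylator, the long noncoding RNA LINC00885, and transfected them with a control siRNA or with 1 of 2 siRNAs against it, PARylator siRNA.1 and PARylator siRNA.2. Each condition had 3 libraries, described as biological replicates, and the labels name no difference between conditions other than the siRNA. All libraries come from 1 line, and the time after transfection is not given in the sources used here.

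NRF2 is a transcription factor of the cap'n'collar family. In unstressed cells KEAP1 holds it on the CUL3 and RBX1 ubiquitin ligase for degradation, and when oxidants or electrophiles modify KEAP1, NRF2 accumulates, pairs with small MAF proteins and binds antioxidant response elements (AREs) near genes of glutathione, thioredoxin and detoxification enzymes. The pathway is often active in squamous carcinomas, through mutations of NFE2L2 or KEAP1. Its main control acts on the NRF2 protein, which was not measured here.

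The ARE core is shown because it is the DNA element through which NRF2 reaches its targets. It was searched as TGACNNNGC on both strands, the other strand reading GCNNNGTCA, in RefSeq promoter windows of GRCh38 running from 250 bases before to 50 after an annotated start. Of the 10 members, 9 had such windows, and KEAP1, GCLM and TXNRD1 held at least 1 core. The core was present in 13.3% of 35116 windows, for 16.1% of 27305 genes, and in 16 of the 41 target genes that had a window. The 41 came from the member target genes and from the list used below, leaving out its degradation and partner genes. GCLM and TXNRD1 are therefore among the 16. None of the cores overlapped an AP-1 motif, searched as TGACTCA and TGAGTCA. The cores are given 5′ to 3′ on the strand of the gene with 10 bases on each side, and capitals mark the core.
KEAP1, chr19:10502807-10502835, minus strand: acttttattgTGACACGGCgggcgcccgg
KEAP1, chr19:10502784-10502812, minus strand: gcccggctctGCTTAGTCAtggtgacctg
GCLM, chr1:93909446-93909474, minus strand: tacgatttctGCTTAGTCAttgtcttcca
TXNRD1, chr12:104215670-104215698, plus strand: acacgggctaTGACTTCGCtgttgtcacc
TXNRD1, chr12:104215761-104215789, plus strand: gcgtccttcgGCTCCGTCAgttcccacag
TXNRD1, chr12:104286920-104286948, plus strand: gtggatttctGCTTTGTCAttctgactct
The second KEAP1 core and the GCLM core carried the same letters, GCTTAGTCA. They lay 31 and 34 bases before a RefSeq start, and the TXNRD1 cores lay 99 and 8 bases before one start and 102 before another. Both KEAP1 cores and the last TXNRD1 core fell within untranslated exon sequence of a GENCODE release 44 transcript. A match describes these letters only and does not show that NRF2 binds there. The absence of a match does not show that a gene lacks the element, because sequence outside the windows was not searched.

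Total counts on genes lay between 15337917 and 17899074 in the control libraries, between 15374616 and 17762752 under siRNA.1 and between 19213164 and 22559998 under siRNA.2. Mitochondrially encoded genes took 7.46% to 7.66% of control counts, and under siRNA.1 and siRNA.2 they took 4.99% to 5.06% and 5.54% to 5.56%. LINC00885 itself had 6, 7 and 12 reads in the control libraries, 4, 5 and 2 with siRNA.1 and 2, 0 and 4 with siRNA.2. Adjusted for depth, its summed reads were 42.5% of control with siRNA.1 (exact 95% interval 18.9% to 89.5%, counting error only) and 19.0% with siRNA.2 (6.39% to 47.5%). The markers of squamous epithelium were present, but did not move together. KRT5 had a mean of 142.0 FPKM in control cells, 40.0 with siRNA.1 and 55.8 with siRNA.2, whereas KRT6A had 78.7, 102.0 and 118.0 and DSG3 10.3, 15.8 and 12.6, with KRT14, KRT17 and TP63 between 8.24 and 163.46 in every library. Their sum over the 6 genes was 415.0 to 434.0 FPKM in control libraries, against 310.0 to 340.0 (siRNA.1) and 334.0 to 352.0 (siRNA.2). The 4 fibroblast markers summed to at most 2.35 FPKM and the 3 endothelial markers to at most 1.54, both in control libraries, and to at most 1.68 and 0.89 with either siRNA. The sum of 5 blood cell markers, 0.12 to 0.54 FPKM in control libraries and 2.79 to 3.58 with either siRNA, was mostly LYZ, which had means of 0.317, 2.79 and 3.08 FPKM. MS4A1 was at 0 in every library, CD3E reached at most 0.02 FPKM and PTPRC 0.22. The part of these values in the results below was not tested. In bulk RNA, fewer cells of a kind and less RNA per cell cannot be told apart.

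The members differed widely in level. In control cells NQO1 (59.6 ± 1.25 FPKM, SD, n = 3), a quinone reductase, and TXNRD1 (58.3 ± 2.29), the cytosolic thioredoxin reductase, stood highest, and their libraries overlapped. NFE2L2 followed at 26.6 ± 0.535 FPKM, then GCLM at 24.8 ± 1.09 and KEAP1 at 23.4 ± 2.49, and the last pair overlapped. SRXN1 and GCLC lay close together at 4.64 ± 0.298 and 4.59 ± 0.299 FPKM. The aldo-keto reductases were near the limit of detection, with mean levels of 0.277 FPKM for AKR1B10, 0.0733 for AKR1C1 and 0.0267 for AKR1C2. Among the 28065 genes above 0 in control cells, 2.16% were higher than NQO1 and 90.0% were higher than AKR1C2. With siRNA.1 and with siRNA.2, TXNRD1 stood above NQO1, and KEAP1 above NFE2L2 by their means. The KEAP1 and NFE2L2 libraries overlapped both in control cells and with siRNA.1.

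**Figure D1:**
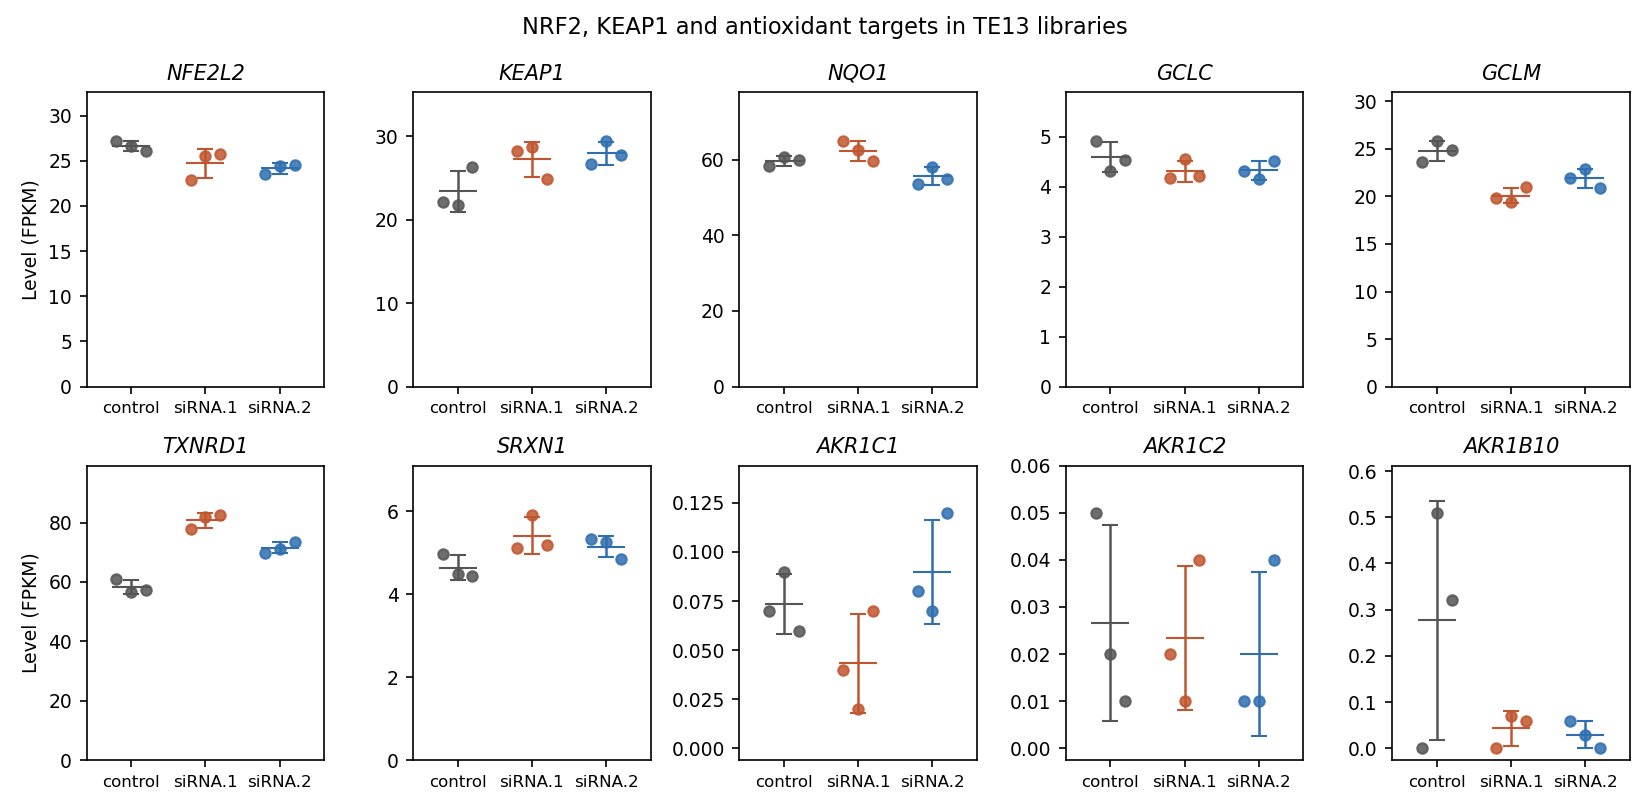
Level in FPKM (vertical axes, 1 panel per gene, each with its own scale) in the 3 libraries of each condition, shown as points, with the mean as a long line and the SD as bars. TXNRD1 was above and GCLM below all control libraries with both siRNAs, and the aldo-keto reductase panels end below 1 FPKM.

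The regulators moved a little and in opposite directions. NFE2L2 was lower and KEAP1 was higher with both siRNAs. NFE2L2 had 27.18, 26.64 and 26.11 FPKM in the control libraries, 22.87, 25.52 and 25.72 with siRNA.1 and 23.5, 24.41 and 24.56 with siRNA.2. Every siRNA library was below every control library. The fitted log2 change was -0.14 ± 0.051 with siRNA.1 (SE, edgeR adjusted p = 0.0271) and -0.15 ± 0.051 with siRNA.2 (adjusted p = 0.0112). These are 0.91 and 0.9 times the control level. The siRNA.1 call was lost without control library 1 (adjusted p = 0.0928), control library 2 (0.0567) or siRNA.1 library 1 (0.269) and without the filter on low values (0.0607), and the siRNA.2 call without siRNA.2 library 1 (0.0852). With limma both calls were lost as well, at adjusted p = 0.132 and 0.0602. NFE2L2 lies at chr2:177227595-177392697 on the minus strand in the deposited table. Its GENCODE release 44 model is longer, with 14975 exonic bases against 5671 deposited. That model shares 3509 bases with HNRNPA3 on the opposite strand and 2037 with a long noncoding RNA gene on the same strand. Whether these overlaps touch the deposited counts was not tested.

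KEAP1, the adaptor that presents NRF2 to the ligase, had 22.17, 21.8 and 26.28 FPKM in the control libraries. It had 28.22, 28.67 and 24.83 FPKM with siRNA.1 and 26.72, 29.43 and 27.76 with siRNA.2. All siRNA.2 libraries were above all control libraries, whereas the lowest siRNA.1 library was below the highest control library. KEAP1 rose by 0.19 ± 0.058 on the log2 scale with siRNA.1 (edgeR adjusted p = 0.00535) and by 0.24 ± 0.057 with siRNA.2 (adjusted p = 0.000135), or 1.14-fold and 1.18-fold. Without control library 1 or 2 the siRNA.1 call was lost (adjusted p = 0.0634 and 0.103), as it was with limma (0.0833). The ratio of NFE2L2 to KEAP1, in FPKM, was 1.23, 1.22 and 0.994 in the control libraries, 0.81, 0.89 and 1.04 with siRNA.1 and 0.879, 0.829 and 0.885 with siRNA.2. The siRNA.2 ratios were all below the control ratios, and the siRNA.1 ratios overlapped them. The siRNA.2 and siRNA.1 libraries, compared directly, differed by -0.015 for NFE2L2 (95% interval -0.11 to 0.08) and by 0.055 for KEAP1 (-0.06 to 0.17), neither past the threshold.

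The targets did not move as a group. Among the 8 tested members, regulators included, siRNA.1 changed 4 (2 higher, 2 lower, median log2 change -0.04). In the same fit 30.3% of all 21395 genes passed, 15.0% higher and 15.2% lower, with a median of -0.0006. With siRNA.2, 5 of the 8 passed (2 higher, 3 lower, median -0.1), against 30.9% of all genes, 15.8% higher and 15.1% lower. The 3 lower calls include AKR1B10, which passed the filter on low values only through the control libraries. Calls are more frequent among well-expressed genes, and of the 12532 genes averaging 1 FPKM or more, 44.8% passed with siRNA.1 and 45.9% with siRNA.2. The members' shares were 50.0% and 62.5% of 8 genes, near this background for so few genes. KEAP1 and TXNRD1 rose with both siRNAs, NFE2L2 and GCLM fell with both, no member changed in opposite directions, and NQO1, GCLC and SRXN1 passed with neither. Both comparisons share the control libraries.

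**Figure D2:**
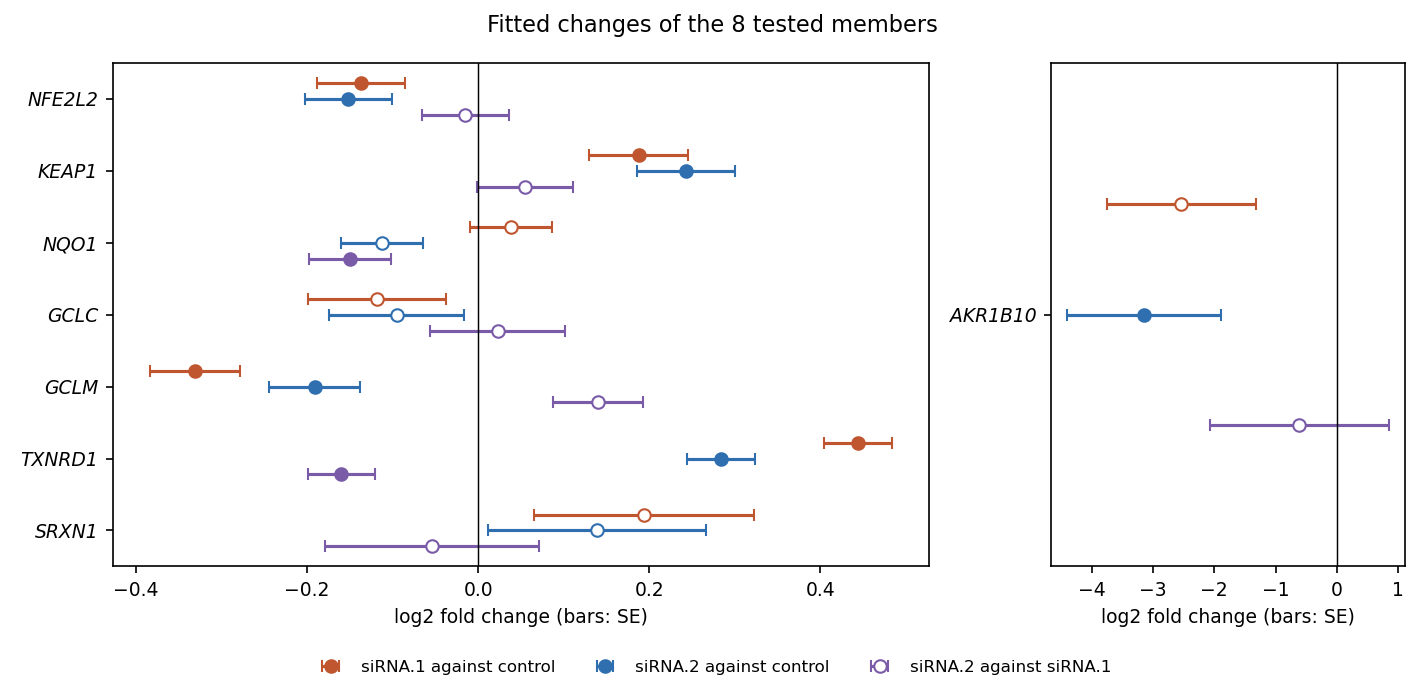
Fitted log2 fold change (horizontal axis) with its SE (bars) for each tested member in the comparisons of siRNA.1 with control, siRNA.2 with control and siRNA.2 with siRNA.1, filled where the edgeR adjusted p is under 0.05 and open otherwise. TXNRD1 lies at 0.44 and 0.28 and GCLM at -0.33 and -0.19 against control, and AKR1B10 has its own scale.

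TXNRD1 and GCLM were the members whose calls held with both siRNAs in every setting run. TXNRD1, which uses NADPH to reduce thioredoxin, had 60.95, 56.77 and 57.23 FPKM in the control libraries, 77.94, 81.87 and 82.69 with siRNA.1 and 69.9, 71.14 and 73.56 with siRNA.2. The conditions did not overlap, and siRNA.1 stood highest. TXNRD1 rose 1.36-fold with siRNA.1 (log2 change 0.44 ± 0.040, edgeR adjusted p = 3.15e-27) and 1.22-fold with siRNA.2 (0.28 ± 0.040, adjusted p = 1.3e-11). Compared directly, its siRNA.2 libraries were below its siRNA.1 libraries, with a log2 difference of -0.16 ± 0.039 (adjusted p = 0.000957). TXNRD1 lies at chr12:104215779-104350307 on the plus strand and its windows held 3 of the ARE cores printed above.

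GCLM, the modifier subunit of glutamate-cysteine ligase, which makes the first intermediate of glutathione, moved the other way. It had 23.64, 25.81 and 24.9 FPKM in the control libraries, 19.83, 19.42 and 20.96 with siRNA.1 and 21.91, 22.83 and 20.92 with siRNA.2. All siRNA libraries lay below all control libraries. GCLM fell to 0.795 times the control level with siRNA.1 (log2 change -0.33 ± 0.053, edgeR adjusted p = 8.39e-09) and to 0.876 times with siRNA.2 (-0.19 ± 0.053, adjusted p = 0.00151). The direct difference of 0.14 ± 0.053 between siRNA.2 and siRNA.1 did not pass (adjusted p = 0.0639, 95% interval 0.04 to 0.24). GCLM and TXNRD1 are both textbook NRF2 targets with an ARE core in a promoter window, and their changes had opposite signs. The part of NRF2 in either change was not tested.

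GCLC, the catalytic subunit of the same ligase, had 4.91, 4.32 and 4.53 FPKM in the control libraries, 4.17, 4.55 and 4.21 with siRNA.1 and 4.31, 4.15 and 4.52 with siRNA.2. The conditions overlapped, and neither comparison passed (siRNA.1 log2 change -0.12, 95% interval -0.28 to 0.04, and siRNA.2 log2 change -0.095, -0.25 to 0.06). The ratio of GCLM to GCLC in FPKM was between 4.81 and 5.97 in control libraries, between 4.27 and 4.98 with siRNA.1 and between 4.63 and 5.5 with siRNA.2, so these ranges overlapped too.

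NQO1, which reduces quinones and is a widely used readout of NRF2 activity, had 58.26, 60.72 and 59.89 FPKM in the control libraries, 64.9, 62.52 and 59.7 with siRNA.1 and 53.65, 58.18 and 54.95 with siRNA.2. The siRNA.1 libraries reached above the controls and overlapped them, and all siRNA.2 libraries lay below all control libraries. Against control the log2 change was 0.038 ± 0.048 with siRNA.1 (edgeR adjusted p = 0.621) and -0.11 ± 0.048 with siRNA.2 (adjusted p = 0.0612). The siRNA.2 value passed in 4 of the other settings, among them DESeq2 (adjusted p = 0.0385), and without siRNA.1 library 2 (0.0479) or siRNA.2 library 2 (0.025). In the direct comparison NQO1 was lower in the siRNA.2 libraries, with a log2 difference of -0.15 ± 0.048 (adjusted p = 0.0186). That call was lost without siRNA.1 library 1 (0.156), siRNA.2 library 1 (0.161) or siRNA.2 library 3 (0.0781). NQO1 and TXNRD1 were the 2 of 8 members that passed between the siRNAs, both lower with siRNA.2 and none higher. Of all genes 12.2% passed, 6.1% higher and 6.06% lower. Of genes averaging 1 FPKM or more, 19.3% passed, and the members' share of 25.0% is near this background for so few genes.

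SRXN1, sulfiredoxin, which restores overoxidized peroxiredoxins, had 4.98, 4.49 and 4.44 FPKM in the control libraries, 5.12, 5.92 and 5.19 with siRNA.1 and 5.33, 5.25 and 4.86 with siRNA.2. The siRNA.1 libraries were all above the control libraries, but with 177 to 277 reads per library the change of 0.19 ± 0.129 did not pass (edgeR adjusted p = 0.281), nor did 0.14 ± 0.127 with siRNA.2 (adjusted p = 0.468). The upper limits of the 95% intervals were 0.45 and 0.39 on the log2 scale. SRXN1 shares 2292 of its 2528 exonic bases with another gene model on the same strand, ENSG00000270299, so its counts are uncertain.

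The aldo-keto reductases, which reduce carbonyls and steroids and are known NRF2 targets in human cells, gave few reads. AKR1C1 had 10, 12 and 9 reads in the control libraries, 6, 3 and 10 with siRNA.1 and 14, 12 and 24 with siRNA.2. Its summed reads, adjusted for depth, were 59.1% of control with siRNA.1 (exact 95% interval 31.6% to 108.0%) and 128.0% with siRNA.2 (80.1% to 207.0%). AKR1C2 had 8 reads in each condition. The coding sequences of AKR1C1 and AKR1C2 are identical at 953 of 972 bases (98.0%), so their reads can be exchanged or dropped in counting. Added into 1 feature, they changed by a log2 value of -0.62 with siRNA.1 (edgeR adjusted p = 0.524) and 0.20 with siRNA.2 (adjusted p = 0.873), which left no difference detectable at this depth.

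AKR1B10 had 0, 14 and 10 reads in the control libraries, 0, 2 and 2 with siRNA.1 and 2, 1 and 0 with siRNA.2. Control libraries 2 and 3 were above every siRNA library and control library 1 was not. Summed and adjusted for depth, its reads were 16.1% of control with siRNA.1 (exact 95% interval 4.06% to 46.8%) and 9.91% with siRNA.2 (1.91% to 32.6%), and these intervals cover counting error only. The siRNA.2 comparison passed in the fit (edgeR adjusted p = 0.0413) and the siRNA.1 comparison did not (0.107). AKR1B10 passed the filter of 0.1 FPKM only through the control libraries (mean 0.277 FPKM, against 0.0433 with siRNA.1 and 0.03 with siRNA.2). The filter therefore favoured a lower value with siRNA, and the call is not independent of it. Without control library 2 the siRNA.2 call was lost (adjusted p = 0.271), as it was without control library 3 (0.113), siRNA.2 library 2 (0.0885) or siRNA.2 library 3 (0.158) and with limma (0.25 and 0.179), while without control library 1 the siRNA.1 comparison passed (0.0449). AKR1B15, whose coding sequence matches that of AKR1B10 at 92.8% of bases, had 57 reads in the control libraries, 23 with siRNA.1 and 8 with siRNA.2. Reads of these neighbours may be split between them.

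The genes around the members came from a list of 60 genes of the NRF2 pathway, of which 59 were tested and ADH7 was at 0 in every library. The list was chosen with earlier results of these data known, so its shares of calls are not an independent test. With siRNA.1, 15 rose and 23 fell (64.4% called, median log2 change -0.13), and with siRNA.2, 12 rose and 24 fell (61.0%, median -0.14). In both comparisons the falls include ALDH3A1, which passed the filter on low values only through the control libraries. Of all tested genes 30.3% and 30.9% passed in these comparisons, and of genes averaging 1 FPKM or more 44.8% and 45.9%. By direction, 15.0% of all tested genes were higher and 15.2% lower with siRNA.1, and 15.8% higher and 15.1% lower with siRNA.2. These shares were larger among the 12532 genes averaging 1 FPKM or more, which included 51 of the 59 genes tested here. Of the 12532, 2764 were higher and 2854 lower with siRNA.1, and 2935 higher and 2821 lower with siRNA.2. Both are backgrounds for the count of each role below, where the printed percentages are those of all tested genes. Between the siRNAs 6 were higher and 12 lower with siRNA.2 (30.5% called, against 19.3% of genes averaging 1 FPKM or more).

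**Figure D3:**
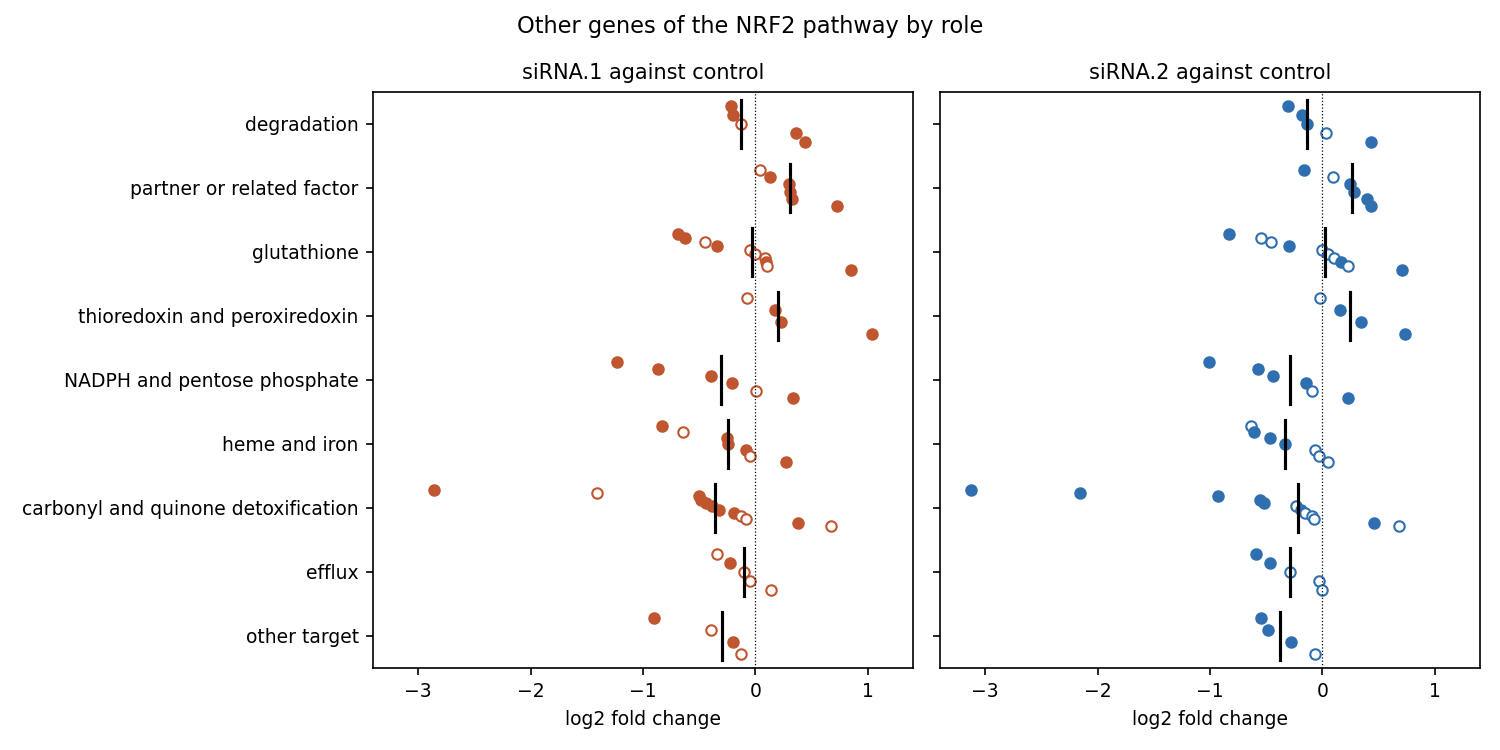
Log2 fold change (horizontal axis) of the 59 tested genes of the wider list, grouped by role (vertical axis), for siRNA.1 and siRNA.2 against control. Points are filled where the edgeR adjusted p is under 0.05, and black lines mark the median of each role. The partner and thioredoxin roles have medians above 0 with both siRNAs. The degradation, NADPH, heme, carbonyl, efflux and other target roles have medians below 0 with both, and the glutathione medians are -0.03 and 0.02. The points farthest to the left are AKR1B15 and ALDH3A1, both with low levels. ALDH3A1 passed the filter on low values only through the control libraries.

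Of the 5 genes of NRF2 degradation, RBX1, the RING subunit of the ligase, rose with both siRNAs. It had 16.97, 18.92 and 19.73 FPKM in the control libraries, 23.75 to 24.95 under siRNA.1 and 24.77 to 25.61 under siRNA.2, and rose 1.29-fold (edgeR adjusted p = 1.4e-07) and 1.35-fold (1.13e-10). CUL3, the scaffold of the same ligase, had log2 changes of -0.13 with siRNA.1 (adjusted p = 0.0966) and -0.18 with siRNA.2 (0.012), the latter lost without control library 3 (0.102) or siRNA.2 library 3 (0.0713) and with limma at either pseudocount (0.0578 and 0.0562). The KEAP1 competitor SQSTM1, a selective autophagy receptor, separated the siRNAs. It had 12.04, 11.03 and 12.17 FPKM in the control libraries, 17.01, 15.84 and 15.8 with siRNA.1 and 11.3, 12.87 and 12.16 with siRNA.2. SQSTM1 rose 1.35-fold with siRNA.1 (adjusted p = 1.69e-13), stood at 1.02 times control with siRNA.2 (0.741), and in the direct comparison had a log2 difference of -0.41 ± 0.055 (2.5e-11). DPP3, another KEAP1-binding protein, fell by 0.22 and 0.14 on the log2 scale (adjusted p = 6.85e-05 and 0.0179). The siRNA.2 call of DPP3 was lost without control library 3 (0.056), siRNA.2 library 1 (0.0882) or siRNA.2 library 3 (0.0643). BTRC, the substrate receptor of a second route of NRF2 degradation, fell by 0.31 with siRNA.2 (adjusted p = 0.000639), and its siRNA.1 value of -0.20 (0.0499) was lost in 15 of 19 other settings, up to an adjusted p of 0.273 without siRNA.1 library 3.

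Among the partners and related factors, 5 of 6 rose with siRNA.1, and with siRNA.2 4 rose and 1 fell, where 15.0% and 15.8% of all tested genes were higher. MAFF, a small MAF protein that pairs with NRF2, had 8.88, 9.22 and 8.69 FPKM in the control libraries, 15.51, 14.77 and 14.91 with siRNA.1 and 11.25, 12.53 and 12.64 with siRNA.2. The conditions did not overlap, and MAFF rose 1.66-fold (edgeR adjusted p = 1.38e-27) and 1.35-fold (3.14e-10). MAFG rose 1.23-fold and 1.18-fold (adjusted p = 2.04e-05 and 0.000712). MAFK had log2 changes of 0.13 (adjusted p = 0.0473) and 0.094 (0.186), and its siRNA.1 value was lost in 11 of 19 other settings, up to an adjusted p of 0.352 without siRNA.1 library 3. BACH1, a repressor that competes for the same elements, rose 1.24-fold and 1.21-fold (adjusted p = 6.51e-05 and 0.000254), and NFE2L3, a relative of NFE2L2, rose 1.25-fold and 1.32-fold (3.17e-10 and 1.61e-15). NFE2L1, the other close relative, had a log2 change of 0.045 with siRNA.1 (adjusted p = 0.526) and fell by 0.16 with siRNA.2 (0.00217), which was lost without control library 3 (0.0502).

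In the glutathione role, 2 of 10 genes rose and 3 fell with siRNA.1, and 2 rose and 2 fell with siRNA.2. Of all tested genes, 15.0% and 15.8% were higher and 15.2% and 15.1% lower. SLC7A11, the cystine importer that feeds glutathione synthesis, had 4.67, 4.44 and 4.46 FPKM in the control libraries, 8.01, 8.98 and 8.02 with siRNA.1 and 8.01, 6.99 and 7.42 with siRNA.2. It rose 1.81-fold (edgeR adjusted p = 4.89e-36) and 1.64-fold (1.62e-25), well clear of the controls. GSR, glutathione reductase, went the other way, from 31.69, 35.41 and 32.77 FPKM to between 21.43 and 22.39 with siRNA.1 and between 17.88 and 19.39 with siRNA.2. GSR fell to 0.648 and 0.563 times the control level (adjusted p = 1.75e-25 and 8.13e-45). SLC7A11 rose with both siRNAs, and GCLM and GSR, which are also glutathione genes, fell with both.

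Beside TXNRD1, 3 of 4 genes of the thioredoxin and peroxiredoxin role rose with each siRNA, where 15.0% and 15.8% of all tested genes were higher. TXN, thioredoxin itself and the substrate of TXNRD1, had 228.26, 246.44 and 235.37 FPKM in the control libraries, 266.42 to 297.04 under siRNA.1 and 296.1 to 312.08 under siRNA.2. It rose 1.17-fold and 1.27-fold (edgeR adjusted p = 2.7e-06 and 7.98e-14). TXNIP, which binds and inhibits thioredoxin and is not a typical NRF2 target, rose most in the role, from 34.5, 32.88 and 37.0 FPKM to between 72.42 and 73.64 with siRNA.1 and between 56.34 and 62.28 with siRNA.2. TXNIP rose 2.06-fold and 1.67-fold (adjusted p = 2.39e-102 and 6.47e-52).

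In the NADPH and pentose phosphate role 1 of 6 genes rose and 4 fell with each siRNA, where 15.2% and 15.1% of all tested genes were lower. IDH1, the cytosolic isocitrate dehydrogenase, had 33.47, 37.08 and 40.47 FPKM in the control libraries, 15.31 to 16.46 under siRNA.1 and 17.79 to 19.03 under siRNA.2. It fell to 0.425 and 0.497 times the control level (edgeR adjusted p = 2.66e-108 and 6.49e-76). PGD, 6-phosphogluconate dehydrogenase, fell to 0.549 and 0.674 times (adjusted p = 1.05e-57 and 2.24e-26).

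In the heme and iron role, 1 of 7 genes rose and 4 fell with siRNA.1, and none rose and 3 fell with siRNA.2. Of all tested genes, 15.2% and 15.1% were lower. FTH1, the ferritin heavy chain, had 596.38, 575.64 and 605.16 FPKM in the control libraries and 418.77 to 441.76 with siRNA.2, a fall to 0.723 times (edgeR adjusted p = 3.06e-40). Its siRNA.1 value, -0.086 on the log2 scale (adjusted p = 0.0422), was lost in 10 of 19 other settings, up to 0.276 without siRNA.1 library 3. HMOX1, heme oxygenase and a classical NRF2 target, had a log2 change of -0.047 ± 0.168 with siRNA.1 (adjusted p = 0.884) and fell by 0.61 ± 0.171 with siRNA.2 (0.0019). BLVRB, a biliverdin reductase, fell by 0.33 with siRNA.2 (adjusted p = 0.000783), and its change of -0.24 with siRNA.1 (0.0217) was lost in 6 other settings, up to 0.194 without siRNA.1 library 3.

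Of 12 tested genes of carbonyl and quinone detoxification, 1 rose and 7 fell with siRNA.1 and 1 rose and 6 fell with siRNA.2. Among all tested genes the same 15.2% and 15.1% were lower. The falls with both siRNAs include ALDH3A1, which passed the filter of 0.1 FPKM only through the control libraries. Its mean was 0.233 FPKM there, against 0.03 with siRNA.1 and 0.0533 with siRNA.2, so the filter favoured a lower value with siRNA. CYP4F11, a cytochrome P450, had 5.02, 5.25 and 5.34 FPKM in the control libraries, 3.24 to 4.26 under siRNA.1 and 2.31 to 3.15 under siRNA.2. It fell to 0.707 and 0.526 times the control level (edgeR adjusted p = 0.000176 and 3.17e-13), and ALDH3A2, a fatty aldehyde dehydrogenase, to 0.713 and 0.698 times (2.23e-11 and 4.56e-13). Efflux transporters had 0 of 5 higher and 1 lower with siRNA.1, and 0 higher and 2 lower with siRNA.2, against the same 15.2% and 15.1% lower. Among the 4 remaining targets, SLC6A6, the taurine transporter, fell to 0.536 and 0.686 times (adjusted p = 2.42e-32 and 4.22e-13). TRIM16L fell by 0.20 and 0.28 on the log2 scale (adjusted p = 0.0111 and 7.24e-05), the former lost without control library 2 (0.0558).

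**Figure D4:**
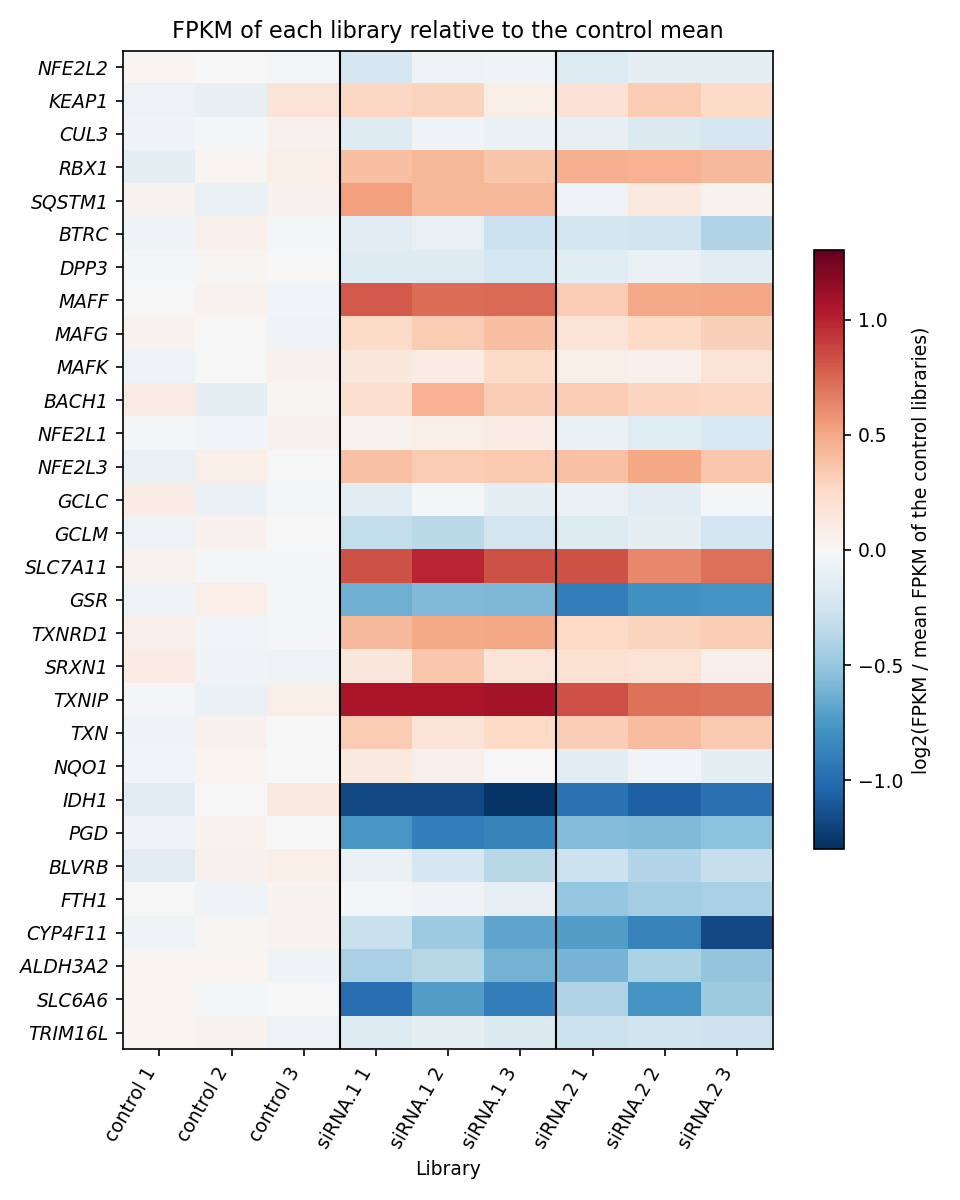
Log2 ratio of each library's FPKM to the mean of the control libraries (colour) for 7 members above 1 FPKM and the named genes of the wider list (vertical axis, in order of role) in the 9 libraries (horizontal axis). Libraries of a condition have like colours, IDH1 reaches -1.27 and TXNIP 1.08, and the NFE2L2, NQO1 and GCLC rows stay pale.

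The genes whose log2 CPM (counts scaled to depth) followed a member most closely over the 9 libraries were sought among 4548 genes averaging 10 FPKM or more. For NFE2L2 these were NORAD (Pearson r = 0.946), DIP2B (0.942) and MFSD5 (0.937), which had mean levels of 113.0, 15.6 and 12.8 FPKM in control cells and 102.0, 13.1 and 10.5 with siRNA.2. For NQO1 they were CITED4 (0.971), MAP7D1 (0.94) and GTF2E2 (0.931), each highest by its mean with siRNA.1 and lowest with siRNA.2. The correlations describe 9 libraries in 3 conditions and share their depth, and nothing about control follows from them.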

How the data were processed

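RNA-seq was measured in 9 TE13 libraries, grouped by their titles. Poly(A)+ RNA was captured, and the authors used STAR for alignment to GRCh38 and featureCounts for counts per gene, as the methods and the submitters' processing notes name them. Versions, annotation and strandedness are not given in the sources used here. The deposited table holds raw counts and FPKM, which the authors computed from them. Recomputation from the counts and deposited exonic lengths differed by at most 0.005. Levels are FPKM as deposited. Counts were tested with edgeR 4.0.16 (quasi-likelihood, TMM) in R 4.3.3, on 21395 genes averaging 0.1 FPKM or more, in 1 fit of 3 conditions without covariates, with Benjamini-Hochberg adjustment over all genes and a threshold of 0.05. TMM factors were 0.989 to 1.02 with a common biological coefficient of variation of 0.0566. The SE is the absolute log2 change divided by the square root of F. limma 3.58.1 and DESeq2 1.42.0 were alternatives, with other scalings, filters, pseudocounts (0.1 and 1), 2 groups only, paralogs summed, a replicate block and each library left out. Same-numbered libraries of different conditions had correlated deviations between -0.2 and 0.11 (1 of 9 pairs over 0.1), so the numbers were not taken to pair them. On simulated counts for siRNA.1 against control over 21395 genes, edgeR recovered 79 of 109 changes of 0.5 and 89 of 91 of 1 on the log2 scale, with 5 false calls. The changed genes were drawn from the better expressed ones, and the simulated spread followed the trend over expression. Called changes of members other than AKR1B10 were below 0.5, a size that was not simulated. Motif windows came from RefSeq promoters of GRCh38 and gene models from GENCODE release 44.

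Members and gene lists were chosen with earlier results of these data known. Named from the wider list are all degradation and partner genes and, in each other role, the 2 with the largest mean change of both siRNAs among those called in the same direction with both and averaging 1 FPKM or more, as well as the 3 genes most correlated with NFE2L2 and with NQO1. AKR1B15, ALDH3A1, HMOX1, ADH7 and ENSG00000270299 are named outside this rule, after their values were seen.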

Additional observations from a re-analysis of the deposited data

Results flagged for a closer look

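TXNRD1 and NQO1 differed between the siRNAs when their libraries were compared directly with edgeR. TXNRD1 rose with both siRNAs, and less with siRNA.2, with a log2 difference of -0.16 (adjusted p = 0.000957). NQO1 passed against control with neither and was lower with siRNA.2 by -0.15 (adjusted p = 0.0186), a call lost without siRNA.1 library 1, siRNA.2 library 1 or siRNA.2 library 3 (adjusted p = 0.156, 0.161 and 0.0781). The groups had 3 libraries each, so no search for single outlying libraries was made.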

How the results depend on the processing

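The numbers of members called against control were 2 with siRNA.1 and 3 with siRNA.2 under limma, with either pseudocount. Leaving out 1 library gave 2 to 4 members called with siRNA.1 (2 without control library 2), 4 to 6 with siRNA.2 and 1 to 2 between the siRNAs (1 without siRNA.1 library 1, siRNA.2 library 1 or siRNA.2 library 3). GCLM and TXNRD1 kept direction and call against control in every setting run. Between the siRNAs, values near 0 changed sign with single libraries left out, ranging from -0.065 to 0.017 for NFE2L2, from -0.007 to 0.098 for KEAP1, from -0.016 to 0.056 for GCLC and from -0.089 to 0.006 for SRXN1. AKR1C2 changed sign when summed with AKR1C1, to 0.202 with siRNA.2 and 0.822 between the siRNAs, because AKR1C1 has most of the reads. The cause of the other changes was not tested. With the replicate block, AKR1B10 lost its siRNA.2 call (log2 change -2.647, adjusted p = 0.207) and the counts of members called were 4, 4 and 2. Of 42 calls of named wider-list genes against control, 34 held in all settings that gave a value and none changed sign. Outside the degradation and partner roles these genes were named for large changes called with both siRNAs. The stability of their calls was therefore partly set by that choice, and does not describe the wider list. DESeq2 left the adjusted p of AKR1B10 empty. AKR1C1, AKR1C2 and AKR1B10 are limited by depth, with at most 24 reads in any library.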
